A study of Homo sapiens with 79 samples.

Results

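The C/EBP family mRNAs described here are those of CEBPA, CEBPB, CEBPD and CEBPG, chosen by gene symbol as 4 of the 48453 genes of the deposited gene table. They were followed through 24 fRIPs of K562 cells, the DNMT1 fRIP first, and 3 of the 4 passed the filter on low values (at least 1 FPKM in at least 2 of 79 libraries), as did 25442 genes in all. fRIP-Seq cross-links whole cells lightly with formaldehyde, shears the lysate, pulls down a protein with an antibody and sequences the RNA that comes with it, and input is RNA of the lysate before the pull-down. K562 is an erythroleukemia line that carries the BCR-ABL1 fusion. All cells were untreated and cross-linked in 0.1% formaldehyde, so by their labels the fRIPs differ in the antibody alone. The 70 fRIP libraries are 2 each for EZH2 and STAG2 and 3 for each other protein, and the 9 input libraries are 3 sets of 3. Every library is from this 1 line. By the study's account replicate fRIPs came from separate lysates made on separate days, so the p-values rest on such preparations of 1 line. Tests against all 9 inputs treat the 3 sets as 1 group, so differences between sets are part of the spread they use. The main fit also takes its spread from all groups together and does not pair libraries.

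C/EBP proteins are basic leucine zipper (bZIP) transcription factors that bind DNA as dimers with each other or with factors such as ATF4. In blood, C/EBPα is needed to make granulocytes, C/EBPβ drives granulocyte output under infection and serves macrophages, C/EBPδ takes part in inflammation and the acute phase, and C/EBPγ has no strong activation domain of its own and acts mainly as a dimer partner. RNA made at the CEBPA locus is known to bind DNMT1, the enzyme that maintains DNA methylation when DNA is copied, which is why the DNMT1 fRIP comes first.

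The members differ in build, read here from GENCODE v44 on hg19. CEBPA (chr19:33790840-33793440, minus strand), CEBPB (chr20:48807367-48809205, plus strand) and CEBPD (chr8:48649475-48650726, minus strand) each have 1 exon, with mature lengths of 2601, 1839 and 1252 bases. Their GC contents of 65.9%, 66.2% and 66.0% all lie above the 97th percentile of 13579 mRNAs, whose median is 49.1%. CEBPG (chr19:33864591-33873592, plus strand) has 2 exons and is longer and AT-richer, with 3730 bases at 41.3% GC. It lies 71150 bases from CEBPA. Most of the CEBPG transcript is a 3′ UTR of 2997 bases at 37.6% GC, against 1407, 600 and 401 bases in CEBPA, CEBPB and CEBPD.

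Overlap with other genes limits how firmly reads can be given to a member. The library kit does not mark strand, so reads of a gene and of a gene on the opposite strand cannot be told apart. Of the stretches of 25 bases in CEBPA, 41.1% also occur in another transcript, and 23.9% occur in 1 antisense lncRNA that overlaps the gene. For CEBPB the share is 13.3%, mainly in CEBPB-AS1, for CEBPD it is 2.28% and for CEBPG 0%. The lncRNAs of the table within 10 kb of CEBPA had at most 1.31 FPKM in any library. CEBPB-AS1 has no matching entry among the deposited genes, so its level beside CEBPB could not be read.

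The letters ATTTA, the core of AU-rich elements, were searched in each mature mRNA on its own strand. They occur 9 times in CEBPG, once each in CEBPA and CEBPB and nowhere in CEBPD, and 70.2% of the 13579 mRNAs hold them at least 1 time. The longer run TTTTAAAA is in none of the 4 members and in 29.0% of mRNAs. The windows below show the single site of CEBPA and of CEBPB beside the 2 most T-rich of the 9 sites of CEBPG, with ATTTA in capitals and 10 bases on each side. They are printed because HUR, whose fRIP is described further on, is known to bind AU-rich RNA, but a match is only a description of letters. The sites lie in the 3′ UTRs at chr19:33791961-33791985 (minus strand), chr20:48808824-48808848 (plus strand), chr19:33871692-33871716 and chr19:33871792-33871816 (both plus strand).
CEBPA: caactctagtATTTAggataacctt
CEBPB: ccgtggtgttATTTAaagaagaaac
CEBPG, first site shown: ttaacctttaATTTAtttctcttaa
CEBPG, second site shown: ctgtttattcATTTAtatgcttttg
These CEBPG windows hold 14 and 15 T in 25 bases and were picked for it. The other 7 CEBPG windows hold 6 to 10 T, and those of CEBPA and CEBPB, with 9 and 7 T, fall in that range.

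Some libraries stood apart before any comparison. The third library of input set 2 held 7.84 FPKM of CEBPB, where the first and second held 30.7 and 27.0, and 15.1 FPKM of CEBPG, where they held 62.2 and 54.0. The third libraries of CHD1, NUP98, PCAF, RBBP5 and WDR5 were low in the same way, at 0.283 to 0.360 of the mean of the other replicates for CEBPB and 0.266 to 0.313 for CEBPG. ATF4, the activator of the amino acid and unfolded protein responses, moved with them (0.310 to 0.481), as did TRIB3 (0.137 to 0.192) and ATF3 (0.0729 to 0.147), both known as its targets. CEBPD did not follow this pattern, with ratios of 0.702 to 1.09 in the 5 fRIPs. The part of this difference in the results was not tested, so results are also given without these 6 libraries. The input sets differed as well. CEBPB was at 13.2 ± 1.33 FPKM in set 1 and 26.1 ± 1.64 FPKM in set 3, and CEBPD at 0.797 ± 0.113 and 1.78 ± 0.227 FPKM (SD, n = 3 each). Each fRIP was therefore compared both with all 9 inputs and with its matched set, the set whose values fit the input mean in the authors' own comparison of that fRIP. From the spacing of low FPKM values, fRIP libraries held 1.93 to 58.7 M fragments and inputs 11.9 to 30.5 M (M for mega). The erythroid markers HBG1, HBG2, HBE1, GATA1, TAL1 and KLF1 were present, and CD3E, MS4A1, CD79A and APOA1 had at most 0.469 FPKM in any input. LYZ and CD3D, from the monocyte and T cell lists, were nevertheless detected, LYZ at 25.8 to 64.0 FPKM in the inputs.

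**Figure D1:**
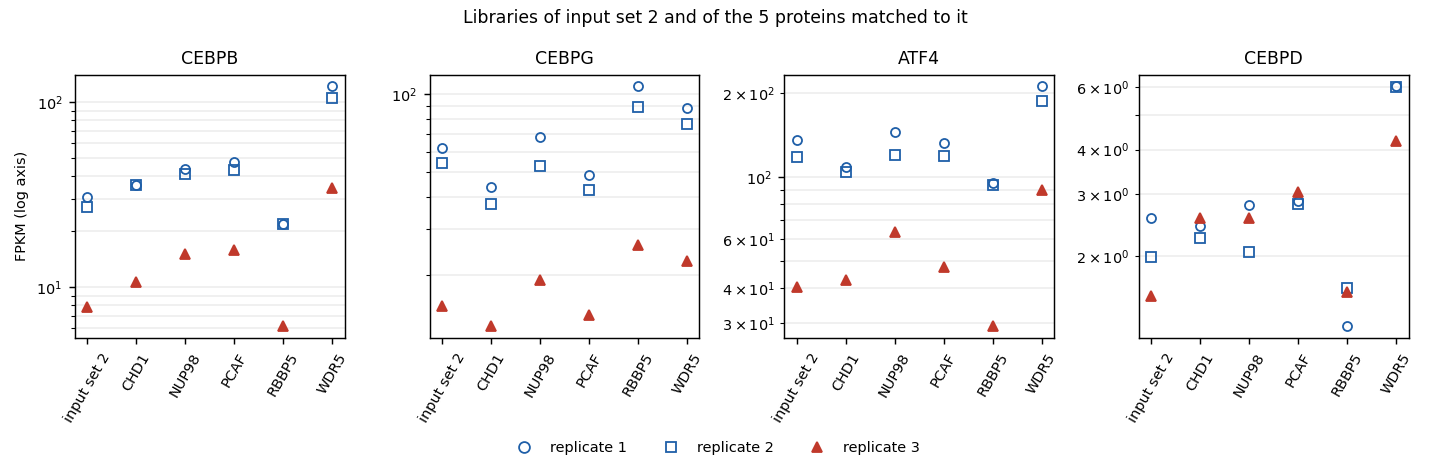
FPKM (log axis) of CEBPB, CEBPG, ATF4 and CEBPD in the 3 libraries of input set 2 and of the 5 proteins matched to it, 1 point per library. The third libraries (filled triangles) lie below the other 2 of their group in every column for CEBPB, CEBPG and ATF4, and not in every column for CEBPD.

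In the DNMT1 fRIP, CEBPB was the member that stood farthest above input, CEBPD and CEBPG were near it, and CEBPA was at the edge of detection. To be called, a gene had to pass an adjusted p of 0.05 in limma and differ more than 2-fold on FPKM + 1, which is 1 on the log2 scale. None of the 3 tested members reached it against all 9 inputs, where 9.56% of all genes tested were enriched and 6.88% depleted. Against the matched set 1 of 3 did, CEBPB, where 10.5% of genes were enriched and 10.0% depleted.

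CEBPA was below 1 FPKM in all 79 libraries, and its highest value was 0.881 FPKM. The DNMT1 libraries held 0.0416, 0.176 and 2.14e-06 FPKM, about 4.99, 25.2 and 0 fragments of 32.9 to 58.7 M. The inputs held 0.0659 and 0.0699 FPKM in the first and second libraries of set 2 and under 0.001 FPKM in the other 7. The groups overlapped, and a two-sided exact permutation test gave p = 0.123 (n = 3 and 9). A count of 0 allows 3 fragments, which is 0.0373 FPKM in the third DNMT1 library. In the 7 inputs under 0.001 FPKM it is 0.0451 to 0.103 FPKM. These limits cover counting error only, since the fragments carry no molecular identifiers. A difference between DNMT1 and input was thus not detected for CEBPA, and the 3 DNMT1 libraries differed among themselves. Annotated neighbours of CEBPA were no clearer. The lncRNA listed as CTD-2540B15.7, on the opposite strand within the CEBPA gene, was at 0.186 to 0.779 FPKM against 0 to 0.502 in input, with a log2 fold change of 0.28 ± 0.17 (SE, limma adjusted p = 0.191). Both gene records named CEBPA-AS1 stayed at or below 0.0335 FPKM.

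CEBPB was at 33.4, 34.3 and 35.6 FPKM in the DNMT1 fRIP and at 7.84 to 30.7 FPKM in the 9 inputs. All 3 fRIP libraries were above every input library and close to each other. The fold, here and further on taken on FPKM + 1, was 1.80 against all inputs, with a log2 fold change of 0.85 ± 0.32 (SE, limma adjusted p = 0.0255; exact permutation p = 0.0318), which placed CEBPB at the 86.1 percentile of all genes tested. Against its matched set, which held 12.1 to 14.7 FPKM, the fold was 2.50 and the log2 fold change 1.32 ± 0.38 (limma adjusted p = 0.0035), a call. The size of the difference thus depended on the input set, and its direction did not. Without the 6 libraries that stood apart, the log2 fold change against the remaining inputs was 0.71 (limma adjusted p = 0.00101).

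CEBPD was at 1.45, 1.92 and 1.10 FPKM in the DNMT1 fRIP, within the 0.688 to 2.56 FPKM of the inputs. The log2 fold change was 0.00 ± 0.18 against all inputs (limma adjusted p = 1) and 0.46 ± 0.19 against the matched set (adjusted p = 0.0486), below the fold a call needs. CEBPG was the most abundant member, at 42.5, 58.1 and 70.2 FPKM in the DNMT1 fRIP and 15.1 to 66.6 FPKM in the inputs. Its libraries overlapped with the inputs, and its log2 fold change was 0.21 ± 0.33 (limma adjusted p = 0.652), and 0.20 ± 0.40 against the matched set.

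The transcripts behind the CEBPG value differed more than the gene total. The isoform table lists ENST00000284000.3 and ENST00000585933.1, which in GENCODE v44 share the second exon (chr19:33870050-33873592) and differ in the first, at chr19:33864615-33864801 and chr19:33865218-33865519. The second of these first exons lies inside the intron of the other transcript. The authors' software splits reads between such transcripts by estimation, so the shares are estimates, and they are given without a test. ENST00000585933.1 made up 40.5%, 43.9% and 47.5% of CEBPG FPKM in the DNMT1 libraries (SD of 3.46, n = 3) and 11.1% ± 3.33 in input (SD, n = 9). The lowest DNMT1 library, at 40.5%, was far above the highest input, at 14.4%. SUZ12 was alike at 42.1% ± 1.18, followed by CBX3 (30.2% ± 4.33), CTCF (29.2% ± 2.26), HDAC1 (26.1% ± 2.37) and HNRNPH1 (22.8% ± 2.26). These 5 have the matched input set of DNMT1, as do IMP1 (6.68%), CHD4 (7.78%) and LSD1 (9.26%), whose means were below the input mean. The part of the input set in these shares was not tested. Of the proteins with other matched sets, PHF8 (21.8% ± 5.03), CBP (19.4% ± 1.94) and CHD1 (19.6% ± 4.24) also had all libraries above every input. PABP (11.9%), HUR (10.3%) and EZH2 (9.81%) were within the input range by their means. In level, ENST00000585933.1 was at 17.2 to 33.3 FPKM in the DNMT1 fRIP against 0.450 to 7.75 FPKM in input. ENST00000284000.3 was at 25.3 to 36.9 FPKM against 14.6 to 59.3 FPKM. So by these estimates the CEBPG total in the DNMT1 fRIP, which overlapped input, was the sum of 1 transcript above the input range and 1 inside it. The transcripts differ only in the first exon, at the 5′ end. The study reports a lean of DNMT1 and SUZ12 coverage toward transcript 5′ ends. The part of this lean in the shares was not tested.

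**Figure D2:**
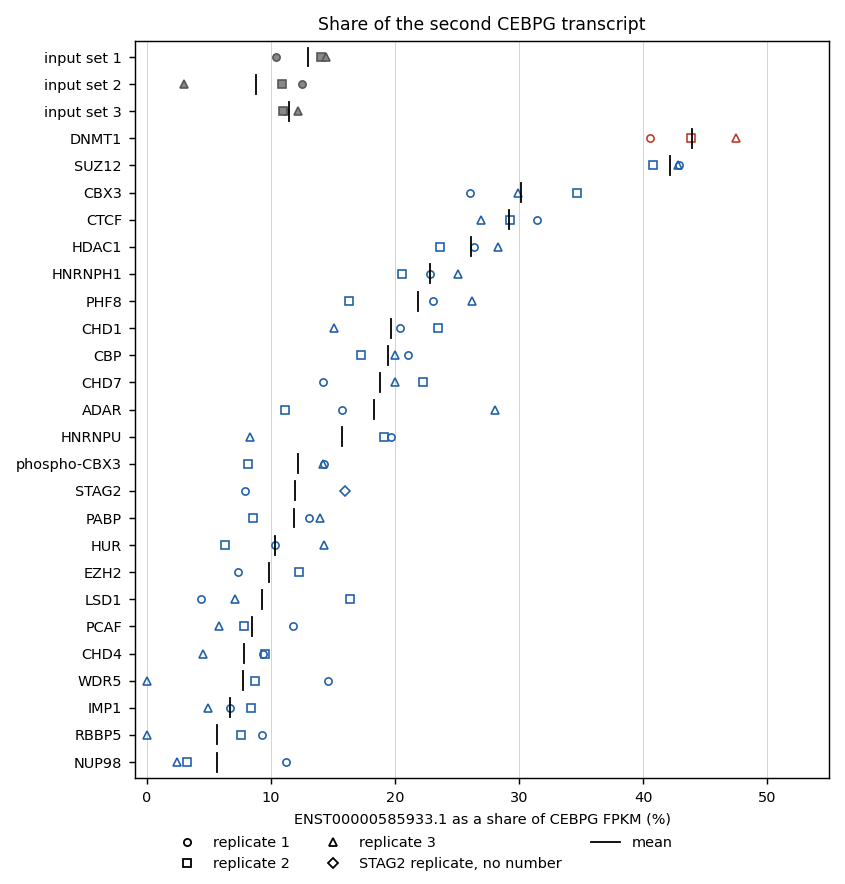
ENST00000585933.1 as a share of the summed FPKM of both CEBPG transcripts (%), 1 point per library, with a bar for each group mean, inputs first and fRIPs in falling order. DNMT1 (40.5% to 47.5%) and SUZ12 (40.8% to 42.9%) lie above all 9 inputs (2.99% to 14.4%).

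**Figure D3:**
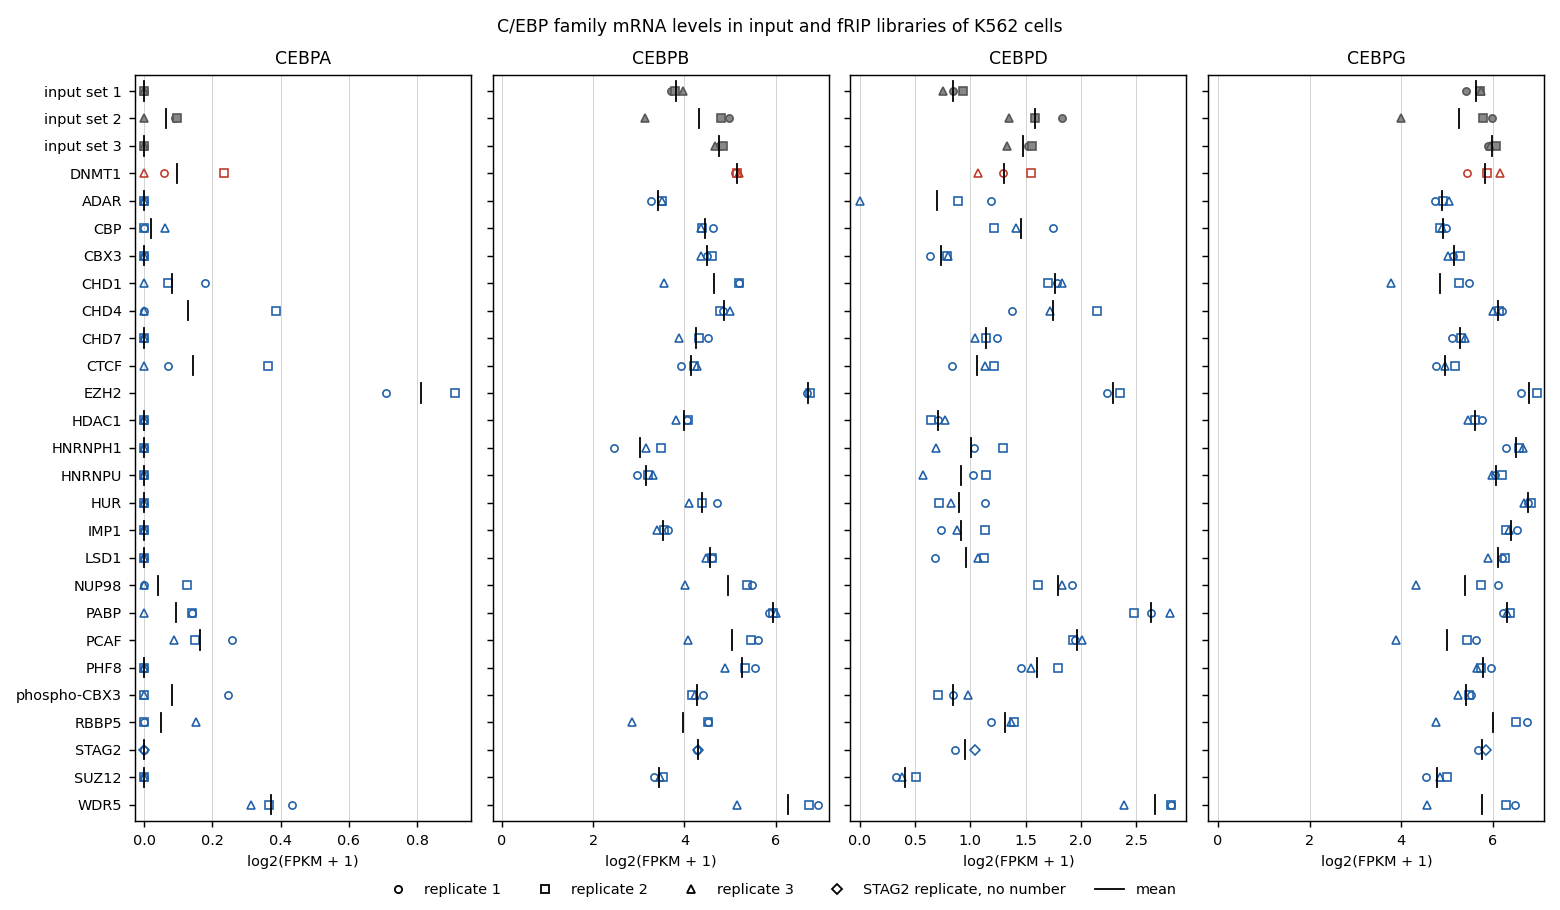
Level of each member as log2(FPKM + 1), 1 point per library, with a bar for each group mean, inputs on top and DNMT1 in red. CEBPG is the highest member in input and in most fRIPs, with CEBPB above it in WDR5 and beside it in PCAF and EZH2, CEBPD is much lower, and CEBPA leaves 0 mainly in EZH2 and WDR5.

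EZH2, the methyltransferase of Polycomb repressive complex 2 (PRC2), had the highest mean CEBPA, CEBPB and CEBPG levels of all 24 fRIPs, with all libraries counted. For CEBPB this rank rests on the third library of WDR5, the low one (34.4 FPKM, the others 121 and 105), and without the libraries that stood apart the log2 fold change was 2.27 in EZH2 and 2.39 in WDR5. CEBPB was at 102 and 106 FPKM, far above the highest input of 30.7. The fold was 5.34, with a log2 fold change of 2.42 ± 0.38 (SE, limma adjusted p = 2.78e-07) and the 98.6 percentile of all genes. The exact permutation p was 0.0182, the smallest that 2 against 9 libraries allow. CEBPG was at 97.5 and 124 FPKM, also above every input, with a log2 fold change of 1.18 ± 0.39 (limma adjusted p = 0.0112). CEBPD was at 3.70 and 4.12 FPKM, again above every input, with a log2 fold change of 0.99 ± 0.21 (limma adjusted p = 7.29e-05) just short of the fold a call needs against all 9 inputs. It was called with 0.5 FPKM added in place of 1 (1.18, where 11.9% of genes were enriched), with centred libraries (1.16, where 13.2% were), and with any 1 of 4 input libraries left out. Without the first EZH2 library, which leaves 1, the log2 fold change of CEBPD was 1.05. Thus 2 of 3 members were called enriched where 10.5% of all genes were (9.13% were depleted). Against the matched set, where 10.5% of genes were enriched too, CEBPB kept the call (1.96 ± 0.43, limma adjusted p = 0.00017), while CEBPG lost it (0.82 ± 0.45, adjusted p = 0.163), and CEBPD was at 0.82 ± 0.22. CEBPG also fell below the fold without the third library of input set 2 (0.97), which held its lowest input value. Without the second EZH2 library, which leaves 1, it was at 1.00. The 2 EZH2 libraries held the most CEBPA of all 79, at 0.635 and 0.881 FPKM, or about 19.8 fragments each, and the next library, of WDR5, held 0.351 FPKM. The inputs ended at 0.0699 FPKM, and the exact permutation p was 0.0182, again the smallest possible. Without a filter on low values the limma log2 fold change of CEBPA in the EZH2 fRIP was 0.79 ± 0.06 (adjusted p = 7.38e-16), a value that the pseudocount of 1 FPKM holds down. Of the 79 libraries, 6 were at 0 and 50 were above 0 but under 0.001 FPKM. The SE and adjusted p draw on this near absence of spread, so they overstate how well the difference is known. Of the lncRNAs near CEBPA, some were too low to read. CTD-2540B15.7, inside CEBPA on the opposite strand, was at 0.342 and 1.24 FPKM in the EZH2 fRIP, the lower of them inside the input range of 0 to 0.502 FPKM (0.60 ± 0.20, limma adjusted p = 0.014; 0.70 against the matched set, adjusted p = 0.0169), and 1 of the gene records named CEBPA-AS1 was at 0.153 and 0.370 FPKM, with a mean of 0.0106 FPKM in input and no test. The other CEBPA-AS1 record was at 1.90e-06 FPKM or less against a mean of 0.00478 FPKM in input, and CTD-2540B15.9 was at 0 in both libraries against a mean of 0.0749 FPKM. No direction is read from these values, since 3 fragments would give 0.0963 and 0.133 FPKM for CEBPA in the EZH2 libraries. Without strand, reads of CTD-2540B15.7 cannot be told apart from those of CEBPA. The same holds for CTD-2540B15.11, the antisense lncRNA that shares 23.9% of the CEBPA stretches, at 0.219 FPKM or less in any library. The part of these lncRNAs in the CEBPA value was not tested.

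SUZ12 is another PRC2 subunit, and in its fRIP the mean levels of the same mRNAs lay below the input means. CEBPB was at 9.09, 10.5 and 10.0 FPKM, with a log2 fold change of -0.86 ± 0.32 (limma adjusted p = 0.0224). CEBPD was at 0.255, 0.422 and 0.306 FPKM, below all 9 inputs, with -0.89 ± 0.18 (limma adjusted p = 1.96e-05; exact permutation p = 0.00455, the smallest possible). CEBPG was at 22.2, 31.1 and 27.8 FPKM, with -0.83 ± 0.33 (limma adjusted p = 0.0338). None of the 3 was called, since each stayed within 2-fold on FPKM + 1, where 15.3% of all genes were enriched and 8.60% depleted. On FPKM itself the means were farther apart, at 0.328 against 1.54 FPKM for CEBPD and 9.86 against 20.4 FPKM for CEBPB. With 0.5 or 0.1 FPKM added in place of 1, CEBPD was called depleted (-1.24 and -1.85, where 10.8% and 13.2% of all genes were). Against the matched set the values were -0.38, -0.44 and -0.83, none with an adjusted p under 0.05. CEBPA was under 0.001 FPKM in the 3 SUZ12 libraries, where 3 fragments would give 0.0487 to 0.0584 FPKM. EZH2 and SUZ12 were compared with the same 9 inputs, but their matched sets differ, set 3 for EZH2 and set 1 for SUZ12. CEBPB was at 26.1 FPKM in set 3 and 13.2 FPKM in set 1, so the values are not like for like. The difference between the fRIPs was not tested.

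WDR5, a subunit of the COMPASS complexes that methylate histone H3, was the fRIP in which CEBPB and CEBPD were both called enriched beside a CEBPG level that overlapped input. CEBPB was at 121, 105 and 34.4 FPKM, the lowest of them in the third library, and all 3 were above every input. The fold was 3.92, with a log2 fold change of 1.97 ± 0.32 (limma adjusted p = 1.14e-06; exact permutation p = 0.00455), at the 99.8 percentile of all genes. The spread of the WDR5 libraries followed the input. Divided by the input of set 2 with the same number, CEBPB was 3.96, 3.88 and 4.39 times higher. CEBPD was at 6.03, 6.02 and 4.23 FPKM, its highest mean of all fRIPs, above every input, with a log2 fold change of 1.37 ± 0.18 (limma adjusted p = 4.96e-09) at the 98.5 percentile. CEBPG was at 88.4, 77.0 and 22.5 FPKM, overlapping the inputs, with 0.15 ± 0.33 (limma adjusted p = 0.774). Its ratios to the input with the same number were 1.42, 1.42 and 1.50, and with the block and the matched set it was at 0.52 (limma adjusted p = 0.000676, and 0.412 without the block). So 2 of 3 members were called enriched where 3.90% of all genes were (6.71% were depleted), and both calls held against the matched set (3.43% of genes enriched), with or without a replicate block (1.96 and 1.08 in both fits), and without the 6 libraries that stood apart (2.39 and 1.52). CEBPA was at 0.351, 0.289 and 0.243 FPKM in the WDR5 libraries, above every input. These are about 19.9, 20.0 and 4.86 fragments, and the exact permutation p was 0.00455, the smallest possible. CTD-2540B15.7 was at 0 to 0.798 FPKM there (0.22 ± 0.17, limma adjusted p = 0.356).

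RBBP5, which joins WDR5 in the COMPASS core, showed the other order. CEBPB was at 21.8, 21.9 and 6.19 FPKM, or 0.712, 0.812 and 0.789 of the input with the same number. CEBPG was at 107, 89.6 and 26.2 FPKM, or 1.73, 1.66 and 1.74 times that input. No member was called in the RBBP5 fRIP (2.28% of genes enriched, 0.731% depleted), with log2 fold changes of -0.34, 0.01 and 0.39 for CEBPB, CEBPD and CEBPG. The third library was the low one here too. Without it, CEBPG was called (1.01, where 2.56% of genes were enriched), and without the third libraries of input set 2 and all its proteins CEBPG was at 0.81. The difference between the WDR5 and RBBP5 fRIPs, which share their inputs, was not tested.

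PABP, the cytoplasmic poly(A)-binding protein, was enriched for CEBPB and CEBPD. CEBPB was at 56.7, 60.1 and 63.6 FPKM, above every input, with a log2 fold change of 1.64 ± 0.32 (limma adjusted p = 1.58e-05). CEBPD was at 5.19, 4.57 and 5.99 FPKM, also above every input, with 1.34 ± 0.18 (limma adjusted p = 2.87e-09). Both had the smallest possible exact permutation p, 0.00455, and both calls held against the matched set (1.17 ± 0.38 and 1.17 ± 0.19, where 9.57% of genes were enriched). CEBPG was at 74.2, 81.8 and 79.1 FPKM, above every input as well, but with 0.69 ± 0.33 (limma adjusted p = 0.074). The 2 members called compare with 11.1% of all genes enriched in the PABP fRIP and 14.7% depleted.

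**Figure D4:**
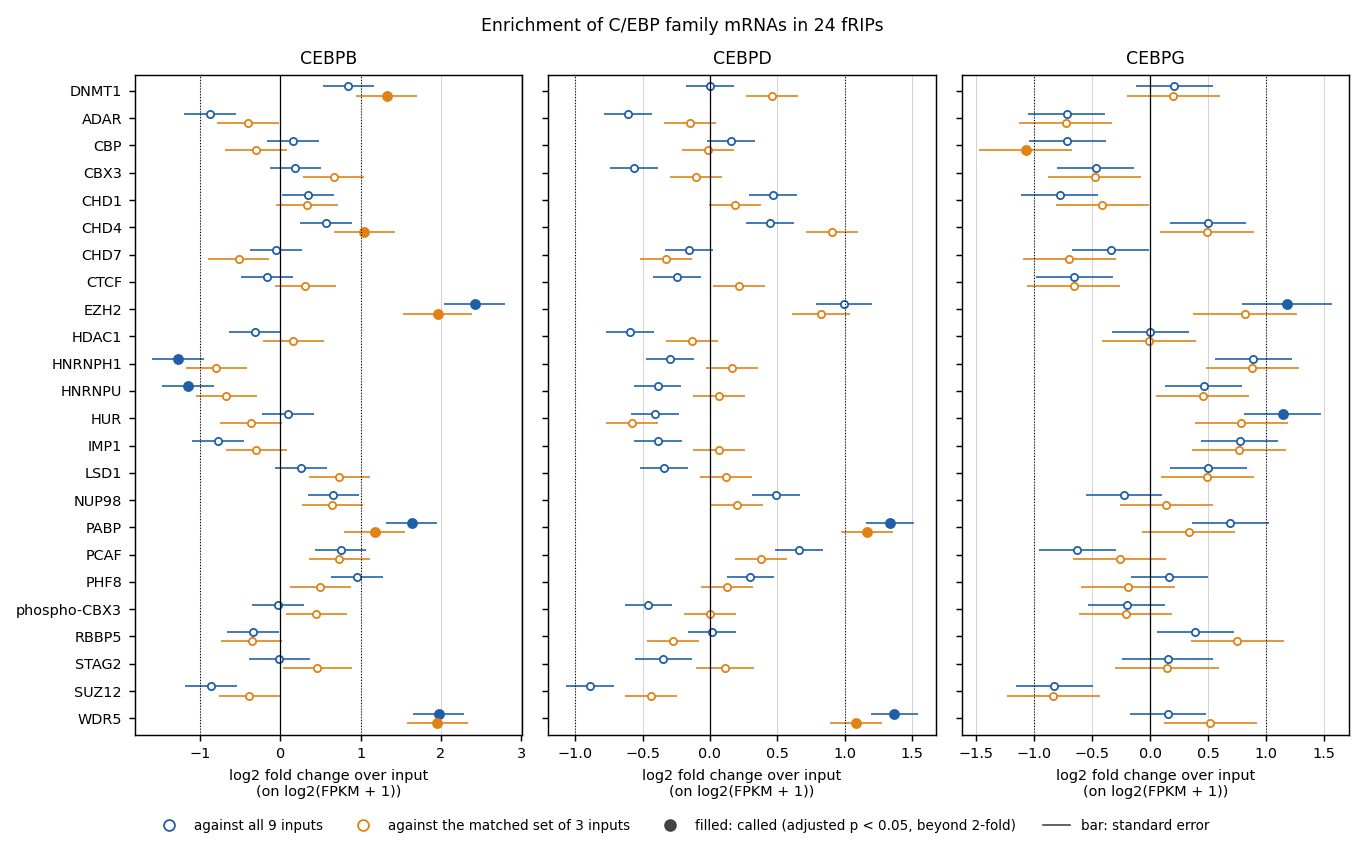
Log2 fold change over input (on FPKM + 1) of CEBPB, CEBPD and CEBPG in each fRIP, against all 9 inputs (blue) and against the matched set of 3 (orange). Points are limma estimates, bars their standard errors, filled points are called, and dotted lines mark 2-fold. CEBPB in EZH2, WDR5 and PABP and CEBPD in WDR5 and PABP are filled in both colors.

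In the fRIPs of HUR, HNRNPH1, HNRNPU and IMP1 the log2 fold change of CEBPG lay above those of CEBPB and CEBPD. Against all inputs the same order was seen in RBBP5, LSD1, HDAC1, STAG2 and SUZ12. It was not seen in the RNA-binding proteins PABP and ADAR. Against the matched sets this order held in HUR, HNRNPH1, HNRNPU, IMP1 and RBBP5. In LSD1, HDAC1, STAG2 and SUZ12 the value of CEBPB was then above that of CEBPG, by 0.24, 0.17, 0.32 and 0.45. In the HUR fRIP, CEBPG was at 108, 113 and 102 FPKM, all above every input, with a log2 fold change of 1.14 ± 0.33 (limma adjusted p = 0.00381; exact permutation p = 0.00455), at the 95.6 percentile. CEBPB, at 25.1, 19.8 and 16.1 FPKM, was within the input range (0.10 ± 0.32), and CEBPD, at 1.20, 0.644 and 0.774 FPKM, had a value of -0.41 ± 0.18. The 1 member called compares with 6.42% of genes enriched and 6.93% depleted. Against the matched set, whose CEBPG level is the highest of the 3 sets, CEBPG was at 0.79 ± 0.40 (limma adjusted p = 0.12), and without the third library of input set 2 at 0.94, both below the fold a call needs. With libraries centred on their median gene it was at 0.89, likewise below.

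HNRNPH1, a regulator of splicing that binds G-rich runs, had CEBPB at 4.46, 10.2 and 7.90 FPKM and CEBPG at 77.4, 94.2 and 100 FPKM. CEBPB was called depleted, with -1.27 ± 0.32 (limma adjusted p = 0.000511; exact permutation p = 0.0136), where 7.90% of all genes were (24.5% were enriched). CEBPG was above every input, with 0.89 ± 0.33 (limma adjusted p = 0.0167). HNRNPU, the scaffold attachment factor, was alike. CEBPB was at 6.72, 8.13 and 8.97 FPKM and called depleted, with -1.15 ± 0.32 (limma adjusted p = 0.00266), where 2.52% of all genes were (13.1% were enriched). CEBPG was at 65.2, 73.1 and 62.4 FPKM, with 0.46 ± 0.33. Neither depletion was called against the matched set, in which CEBPB is itself low (-0.79 ± 0.38 and -0.67 ± 0.38). Without the first HNRNPH1 library the value was -0.98. In the fRIP of IMP1, which binds and stabilizes many mRNAs, CEBPB was at 11.4, 10.7 and 9.52 FPKM (-0.77 ± 0.32) and CEBPG at 91.3, 77.4 and 81.0 FPKM (0.77 ± 0.33), with no call where 4.23% of genes were enriched and 10.5% depleted. The matched set of IMP1 held CEBPB at 13.2 ± 1.33 FPKM, nearer to its IMP1 level, and CEBPG at 48.7 ± 6.16 FPKM (SD, n = 3 each). Centring moved all genes of the IMP1 fRIP by 0.46 and of the HNRNPH1 fRIP by -0.73, and CEBPG was then called in IMP1 (1.23, where 12.5% of genes were enriched) and stood at 0.15 in HNRNPH1.

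With all libraries and no centring, no member was called against the 9 inputs in the other 14 fRIPs not yet described, among them regulators of chromatin, cohesin and a nuclear pore protein. Their values are given with the share of all genes enriched and depleted in each. In the fRIPs of the acetyltransferases, PCAF had CEBPB at 47.6, 43.1 and 15.9 FPKM (0.75 ± 0.32, limma adjusted p = 0.0648) and CEBPD at 2.80 to 3.03 FPKM, above every input (0.66 ± 0.18, adjusted p = 0.0024), where 0.515% of genes were enriched and 8.54% depleted. CBP had CEBPB at 19.7 to 23.7 FPKM and CEBPD at 1.32 to 2.36 FPKM, both within the input range (9.08% and 3.78%). CEBPB in PCAF was at the 97.2 percentile of all genes, and its lowest value was in the third library. Divided by the input of set 2 with the same number, it was 1.55, 1.60 and 2.03 times higher. With the replicate block and the matched set the log2 fold change was 0.74 (limma adjusted p = 3.05e-05, and 0.191 without the block), below the fold a call needs. CEBPB was called without the third PCAF library (1.24, where 0.417% of genes were enriched), and CEBPB (1.36) and CEBPD (1.27) both were with centred libraries, where 11.8% of genes were.

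Of the chromatin remodellers, CHD1 had CEBPB at 35.6, 35.7 and 10.7 FPKM and CEBPG at 43.7, 37.7 and 12.7 FPKM, again lowest in the third library (0.424% and 1.00% of genes). With the block and the matched set CEBPG was at -0.41 there (limma adjusted p = 0.0221, and 0.749 without the block). CHD4 had CEBPD at 1.60 to 3.43 FPKM and CEBPG at 63.4 to 73.3 FPKM (2.91% and 9.79%). CHD7 had all 3 members inside the range of the inputs, with CEBPG at 33.9 to 41.3 FPKM (0.990% and 0.896%). For CEBPG this rests on the third library of input set 2 (15.1 FPKM). The other inputs ran from 41.6 to 66.6 FPKM, and those of the CHD7 matched set from 59.0 to 66.6 FPKM. None of these was called, and against all 9 inputs only CEBPD in CHD4 had a limma adjusted p under 0.05 (0.0386, at 0.45 ± 0.18).

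In the fRIPs of the demethylases, PHF8 had CEBPB at 45.9, 39.2 and 28.6 FPKM (0.96 ± 0.32, limma adjusted p = 0.0206, with 3.18% and 1.71% of genes), close to 2-fold above input but with overlap. Without the third PHF8 library it was called (1.14, where 3.55% of genes were enriched), as it was with any 1 of 5 input libraries left out. Its matched set held CEBPB at 26.1 ± 1.64 FPKM (SD, n = 3), nearer to the PHF8 mean of 37.9 FPKM than the 20.4 FPKM of all inputs. LSD1, the H3K4 demethylase, had CEBPG at 58.6 to 75.9 FPKM (0.50 ± 0.33, with 0.814% and 6.66%). HDAC1, a histone deacetylase, had CEBPD at 0.563 to 0.703 FPKM, overlapping only the lowest input (-0.59 ± 0.18, with 8.42% and 5.35%). Its matched set held 0.688 to 0.913 FPKM. The nucleoporin NUP98 had CEBPB at 43.7, 40.7 and 15.2 FPKM (0.66 ± 0.32), at the 98.0 percentile (0.263% and 5.11%). These were 1.43, 1.51 and 1.94 times the same-numbered inputs, and with the block and the matched set the value was 0.65 (limma adjusted p = 0.000497, and 0.36 without the block). CEBPB was called without the third NUP98 library (1.13, limma adjusted p = 0.0297, where 0.197% of genes were enriched) and with centred libraries (1.08, where 2.79% were).

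The heterochromatin protein CBX3 had CEBPD at 0.550 to 0.733 FPKM (-0.56 ± 0.18, limma adjusted p = 0.00882, with 7.45% and 3.65% of genes), and phospho-CBX3 had it at 0.630 to 0.971 FPKM (-0.46 ± 0.18, with 2.58% and 2.91%). The matched set of both, set 1, held CEBPD at 0.688 to 0.913 FPKM, and the libraries of both overlapped it. CTCF, the insulator protein, had CEBPG at 26.2 to 35.2 FPKM (-0.65 ± 0.33, with 0.424% and 0.790%). The cohesin subunit STAG2, with 2 libraries, had CEBPB at 18.3 and 18.7 FPKM and CEBPG at 50.6 and 56.7 FPKM, both within the input range (0.979% and 3.36%). ADAR, which edits adenosine in double-stranded RNA, had CEBPB at 8.61, 10.3 and 10.3 FPKM (-0.87 ± 0.32, limma adjusted p = 0.0161, with 26.6% and 4.31%). In its matched set CEBPB was at 12.1 to 14.7 FPKM, nearer to these values than the mean of all inputs. So 1 or more members differed from the 9 inputs at a limma adjusted p under 0.05 in several of these fRIPs, but by less than 2-fold on FPKM + 1. On FPKM itself some means were farther apart, as for CEBPD in HDAC1 (0.634 FPKM) and CBX3 (0.670 FPKM) against 1.54 FPKM in input, and for CEBPB in ADAR (9.75 against 20.4 FPKM). These gaps were smaller against set 1, the matched set of all 3 proteins, with CEBPD at 0.797 FPKM and CEBPB at 13.2 FPKM. Against all 9 inputs, with 0.1 FPKM added in place of 1, CEBPD was called depleted in HDAC1 (-1.05, where 7.23% of all genes were) and in ADAR (-1.58, where 8.71% were).

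Over all 24 fRIPs, CEBPB was called enriched in 3 (EZH2, PABP, WDR5) and depleted in 2 (HNRNPH1, HNRNPU), CEBPD enriched in 2 (PABP, WDR5) and CEBPG enriched in 2 (EZH2, HUR). Neither CEBPD nor CEBPG was called depleted in any of them on this scale. Between fRIPs, the share of all genes called enriched ran from 0.263% to 26.6%, and depleted from 0.731% to 14.7%. Against the matched sets CEBPB was called in 5 (with DNMT1 and CHD4 added and no depletion), CEBPD in the same 2, and CEBPG only in the CBP fRIP, as depleted. In the CHD4 fRIP, CEBPB was at 27.5, 26.4 and 30.9 FPKM, or 1.05 ± 0.38 over its matched set (limma adjusted p = 0.0216), where 5.16% of genes were enriched. In the CBP fRIP, CEBPG had a mean of 29.0 ± 1.31 FPKM against 62.1 ± 4.00 FPKM in the matched set (SD, n = 3 each), or -1.07 ± 0.40 (limma adjusted p = 0.0379), where 2.80% of genes were depleted. Without the 6 libraries that stood apart, CEBPB was called enriched in 4 (PCAF added, where 0.546% of genes were) and depleted in 4 (ADAR and SUZ12 added, where 4.07% and 8.51% of genes were), and CEBPG was enriched in none and depleted in SUZ12 (-1.03). All 3 members were above input in 6 fRIPs and below it in 6 by the sign of the fold change, which carries no test.

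The order of mean CEBPB levels ran from EZH2 (104 ± 3.09 FPKM, n = 2) through WDR5 (86.8 ± 46.1, the third library being low), PABP (60.1 ± 3.48), PHF8 (37.9 ± 8.75), PCAF (35.5 ± 17.2) and DNMT1 (34.4 ± 1.11) to HNRNPU (7.94 ± 1.14) and HNRNPH1 (7.51 ± 2.87; SD, n = 3 for these). Neighbours in this order lay within 1 SD of each other in 20 of 23 cases, so that most steps are not resolved. For CEBPD the order began with WDR5 (5.43 ± 1.04), PABP (5.25 ± 0.714) and EZH2 (3.91 ± 0.292) and ended with SUZ12 (0.328 ± 0.0853), with 19 of 23 neighbours within 1 SD. For CEBPG it began with EZH2 (111 ± 19.1), HUR (108 ± 5.54) and HNRNPH1 (90.7 ± 11.9) and ended with ADAR (29.0 ± 3.21) and SUZ12 (27.0 ± 4.51), with 22 of 23 within 1 SD. ADAR libraries were the shallowest, with CEBPD at 0 to 2.72 fragments in each. Its values are the ones most moved by scaling, since centring shifted all genes of the ADAR fRIP by -0.98 and CEBPB, CEBPD and CEBPG were then called depleted there (-1.85, -1.59 and -1.70), as were 35.2% of all genes.

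A difference of 2 members within the same library largely removes the scale of that library where both are abundant, as CEBPB and CEBPG are. Because 1 FPKM is added before the log, it does not do so for CEBPD or CEBPA. CEBPB minus CEBPG, on log2(FPKM + 1), was -1.32 ± 0.39 in the 9 inputs (SD). It was 0.49 ± 0.08 in WDR5, 0.06 ± 0.11 in PCAF, -0.08 ± 0.20 in EZH2 and -0.20 ± 0.11 in CHD1, all above the inputs. It was -2.37 ± 0.27 in HUR, -2.87 ± 0.11 in IMP1, -2.93 ± 0.23 in HNRNPU and -3.48 ± 0.38 in HNRNPH1, all below them. In WDR5 the change from input, 1.82, is a 3.52-fold shift between the mRNAs, and in HNRNPH1, at -2.16, it is a 4.46-fold shift the other way. Against the matched sets both were smaller, at 1.44 (2.71-fold) in WDR5 and -1.68 (3.19-fold) in HNRNPH1, each with an exact permutation p of 0.1, the smallest that 3 against 3 libraries allow. The matched-set values were 1.00 in PCAF, 1.14 in EZH2 and 0.75 in CHD1, and -1.15 in HUR, -1.06 in IMP1 and -1.12 in HNRNPU. Unlike the single levels, the third libraries of input set 2 and its fRIPs lay with their groups in this measure. DNMT1 was at -0.68 ± 0.31, or 0.64 above input (exact permutation p = 0.0227, adjusted p = 0.0992), and 1.13 above its matched set.

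Whether these differences passed depended on the tests adjusted together. Over 6 pairs of members and 24 proteins, 144 exact permutation tests were run, 44 had p under 0.05 and none had an adjusted p under 0.05. The smallest p that 3 against 9 libraries allow is 0.00455. It was reached in 13 tests, whose adjusted p was 0.0503. Of these, 7 were CEBPB against CEBPG (WDR5, PCAF, CHD1, HUR, IMP1, HNRNPU and HNRNPH1), 1 was CEBPD against CEBPG (HUR, -1.55), and 5 involve CEBPA, which was near 0 in most libraries. With adjustment over the 72 tests without CEBPA, a choice made after seeing the data, 14 had an adjusted p under 0.05, and the 8 at the smallest p were at 0.0409. CEBPB was then higher relative to CEBPG than in input in 7 fRIPs (WDR5, PCAF, CHD1, NUP98, CBP, PABP and PHF8) and lower in 4 (HUR, IMP1, HNRNPU and HNRNPH1). CEBPD was lower relative to CEBPG in 2 (HUR and HNRNPH1), and CEBPB higher relative to CEBPD in 1 (DNMT1). Leaving out the third library of input set 2, which holds the lowest CEBPB and CEBPG of the inputs, changed the count over 144 tests as well. CEBPB was then higher relative to CEBPG than in input in 9 fRIPs and lower in 4, with an adjusted p under 0.05. In the DNMT1 fRIP, CEBPB minus CEBPD was 3.84 ± 0.27 against 3.00 ± 0.48 in input, a difference of 0.85 (exact permutation p = 0.00909, adjusted p = 0.0689 over 144 tests and 0.0468 over 72). CEBPD minus CEBPG did not differ detectably there (-0.20, p = 0.618 by exact permutation).

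**Figure D5:**
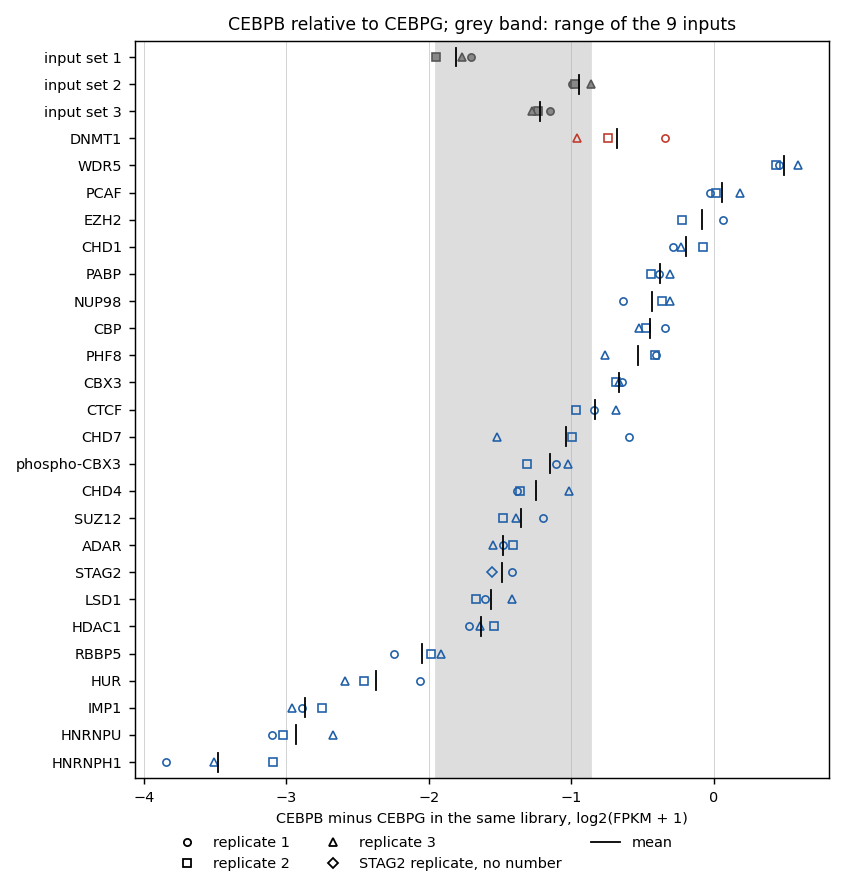
CEBPB minus CEBPG in the same library on log2(FPKM + 1), 1 point per library with a bar for each group mean. Inputs and DNMT1 are on top, the other fRIPs follow in falling order, and the grey band is the range of the 9 inputs. WDR5 is at the top end (0.49) and HNRNPH1 at the low end (-3.48).

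CEBPB and CEBPD are single-exon mRNAs, so their place among such genes was also read. The 296 single-exon mRNAs tested had a median log2 fold change of -0.06 in the DNMT1 fRIP, beside 0.05 for all genes and 0.30 for 13618 mRNAs, and 10.8% were enriched and 14.2% depleted. CEBPB was at their 84.8 percentile and CEBPD at the 55.4 percentile. In the EZH2 fRIP their median was 0.05 beside -0.13 for all genes, and 25.3% of them were called enriched. CEBPB stood at the 92.6 percentile and CEBPD at the 74.0. In the WDR5 fRIP 17.6% were enriched, with CEBPB at the 96.3 and CEBPD at the 90.5 percentile. In the SUZ12 fRIP their median was -0.38, and 27.0% were called depleted, against 8.60% of all genes. CEBPB stood at their 33.8 and CEBPD at their 31.4 percentile, against 11.5 and 10.7 among all genes.

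Across the means of 24 proteins, the level of CEBPB ran with that of CEBPD (Pearson r = 0.85 on log2(FPKM + 1)), and neither ran closely with CEBPG (0.21 for both). These r describe points that share libraries and scale, and they carry no test. Of 11174 genes with at least 1 FPKM in input on average, those most like CEBPB over the 24 means were AC093323.3, UBL4A and TMEM203 (r of 0.93, 0.93 and 0.92). Those most like CEBPD were PDF, GFER and CCDC85B (0.94, 0.93 and 0.92). Those most like CEBPG were C6orf106, TRIM44 and CMTM4, with lower values of 0.82 each.

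Genes around the family were read from 4 lists of 35 names, of which 29 passed the filter. In the DNMT1 fRIP 8 of the 29 were called enriched and none depleted, and their median log2 fold change was 0.77, beside 9.56% enriched and a median of 0.05 over all genes and 0.30 over mRNAs. Of the 11 bZIP dimer partners, all tested, 5 were enriched. ATF4 was at 295 to 308 FPKM against 40.4 to 138 in input (1.42 ± 0.26). ATF5 was at 1.83 ± 0.55, BATF3 at 1.53 ± 0.27, JUN at 1.35 ± 0.29 and ATF2 at 1.06 ± 0.09, all with limma adjusted p of 0.00435 or less. Of the other genes with a C/EBP name, DDIT3, also called CHOP, which blocks C/EBP dimers from their usual sites, was at 282 to 421 FPKM against 39.4 to 191 in input (1.38 ± 0.36, limma adjusted p = 0.000962). CEBPZ was at -0.19 ± 0.21, and CEBPE did not pass the filter. Of the 6 myeloid targets tested out of 11, 2 were enriched, SPI1, which encodes the myeloid factor PU.1 (1.14 ± 0.26), and ID2 (1.77 ± 0.34). MPO, ELANE, PRTN3, CD14 and CSF2RA did not pass the filter. None of the 10 factors that act on C/EBP protein or mRNA was called. TRIB3 was at 1.00 ± 0.49 (limma adjusted p = 0.09), and CALR, which binds GC-rich stretches of C/EBP mRNAs, at 0.89 ± 0.15. ATF4, DDIT3 and ATF5 are among the mRNAs that were low in the third library of input set 2. Against the matched set, which leaves that library out, 8 of the 29 were again called, with JUNB (1.13) and CALR (1.15) in place of ATF5 (1.04, limma adjusted p = 0.186) and ATF2 (0.90). Of the marker genes, CD3D, of the T cell list, was at 61.7 to 85.9 FPKM in the DNMT1 fRIP against 13.5 to 38.7 in input (1.49 ± 0.27) while CD3E did not pass the filter, and the part of such genes in the values above was not tested.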

How the data were processed

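The authors mapped paired-end reads to hg19 with TopHat and deposited FPKM values (fragments per kilobase of transcript, scaled to library depth) made with Cuffnorm on GENCODE genes. The submitters' processing notes also name Cuffdiff and CASAVA 1.4. The strand setting of the counting is not given in the sources used here. Tables of the authors' comparisons hold test statistics, fold changes and p-values, which were not used. Only their deposited group FPKM served to find the input set matched to each fRIP. FPKM of genes and isoforms was read for 79 libraries, and 0 columns were left unmapped. The test kept genes that reached 1 FPKM in 2 or more libraries (25442 of 48453), on log2(FPKM + 1) with limma 3.58.1 (trend), with 1 mean per protein and 1 for the 9 inputs, and Benjamini-Hochberg adjustment within each comparison. Calls required an adjusted p below 0.05 together with a difference above 1 on the log2 scale. Fold changes on this scale understate those of low genes such as CEBPD. Single members were also compared by two-sided exact permutation tests, and differences of 2 members within a library by the same test with adjustment over 144 tests, or, chosen after seeing the data, over the 72 without CEBPA. The script was tested on simulated data.

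Depth was read from the steps of low FPKM values, of which 97.0% to 99.2% per library came within 0.15 of whole fragments. These depths and all fragment numbers are approximate. Deeper libraries, such as those of DNMT1, give smaller counting error than those of ADAR.

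Groups came from the sample labels. Alternatives were other pseudocounts, filters and scalings, single input sets, matched sets, a replicate block, and leaving out each library. The libraries of input set 2 deviated together with the same-numbered libraries of CHD1, NUP98, PCAF and WDR5 (every correlation at least 0.129), and RBBP5 fell just short (lowest 0.0877). In sets 1 and 3 the numbers did not pair the libraries.

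The members and gene lists were chosen with earlier results of these data known. Named genes are the members in every fRIP, the genes of the lists that were called in the DNMT1 fRIP, and the 3 genes most like each member. Others were chosen after their values were seen, among them TRIB3, ATF3, CALR, CEBPZ, JUNB and the marker genes. Sites and gene structures were read from GENCODE v44 mapped to hg19, with the sequence of the same build. Computation used Python 3.11.15, numpy 2.4.6, pandas 2.3.3, scipy 1.17.1, matplotlib 3.10.9 and R 4.3.3.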

Additional observations from a re-analysis of the deposited data

Results flagged for a closer look

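The lowest of the 9 input values of CEBPG, 15.1 FPKM in the third library of input set 2, stood apart from the other 8, which ran from 41.6 to 66.6 FPKM. Its gap to the nearest value was 0.516 of the whole range, above the 95% critical value of Dixon's test for 9 values, which chance passes in about 1 of 20 groups. The same library held the lowest CEBPB of the inputs.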

How the results depend on the processing

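No called value changed sign under any alternative run. The DNMT1 fold change of CEBPB became a call (1.32) against input set 1 alone, the matched set, and the matched set with a replicate block. CEBPB minus CEBPG in DNMT1 moved from 0.64 to 1.13 against input set 1, which is its matched set. CEBPB was called enriched in 5 fRIPs with centred libraries, 8 against set 1 alone, and 5 against the matched sets with or without the block. It was called depleted in 4 with upper-quartile scaling, 5 against set 3 alone, 4 without the 6 libraries that stood apart, and 0 against set 1 alone and the matched sets with or without the block. CEBPD was enriched in 4 with centring and in 4 against set 1 alone. Against none in the report, it was depleted in 3 with a pseudocount of 0.1 FPKM, 1 with 0.5 FPKM, 2 with centring, 2 with upper-quartile scaling, and 1 each against sets 2 and 3 alone. CEBPG was enriched in 1 with upper-quartile scaling, 5 against set 2 alone, and 0 against set 3 alone, the matched sets with or without the block, and without the third libraries. It was depleted in 1 with centring, 2 with upper-quartile scaling, 3 against set 3 alone, and 1 each against the matched sets, with or without the block, and without the third libraries. With pairs adjusted without CEBPA, CEBPB minus CEBPD in DNMT1 (0.85) passed, and the number of fRIPs that passed went from 0 to 1 for CEBPB above CEBPD, 7 for CEBPB above CEBPG, 4 for CEBPB below CEBPG and 2 for CEBPD below CEBPG. The cause of these shifts was not tested.

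With each library left out in turn, the DNMT1 fold changes ran from 0.71 to 0.94 for CEBPB, -0.12 to 0.12 for CEBPD and 0.00 to 0.40 for CEBPG, and the differences from 0.70 to 0.97 (CEBPB minus CEBPD), 0.47 to 0.78 (CEBPB minus CEBPG) and -0.39 to 0.08 (CEBPD minus CEBPG). CEBPB was enriched in 3 to 4 fRIPs and depleted in 1 to 4, CEBPD in 2 to 3 and 0, and CEBPG in 0 to 3 and 0 to 1. Pairs passed the adjusted threshold in 0 to 4 fRIPs (CEBPB above CEBPD), 0 to 3 (below), 0 to 9 (CEBPB above CEBPG), 0 to 4 (below), 0 to 7 (CEBPD above CEBPG) and 0 to 5 (below). The upper ends of the pair counts came from leaving out the third library of input set 2, as did 4 for CEBPB depleted and 0 for CEBPG enriched. Leaving out the first HNRNPH1 library gave the 1. A replicate block against all inputs changed no call, with CEBPB in DNMT1 at 0.85. Counts were low for CEBPA in every library (at most about 25.2 fragments) and for CEBPD in ADAR (at most about 2.72).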

Other observations

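The genes around the family were also read in the EZH2 and WDR5 fRIPs, where they were chosen after their values were seen. Of the 29 listed genes tested, 6 were called enriched and 2 depleted with EZH2 (10.5% and 9.13% of all genes), and 7 were enriched and 0 depleted with WDR5 (3.90% and 6.71% of all genes). Both fRIPs were compared here with the same 9 inputs, but their matched sets differ, set 3 for EZH2 and set 2 for WDR5. TRIB2, whose product is known to drive the breakdown of C/EBPα, was at 112 to 143 FPKM with EZH2 and 47.8 to 85.9 FPKM with WDR5, against 13.5 to 23.6 FPKM in input, with log2 fold changes of 2.84 ± 0.21 and 1.73 ± 0.18 (SE). TRIB1 was at 1.48 ± 0.27 and 1.72 ± 0.23. JUND, a bZIP factor, was at 232 to 250 FPKM and 179 to 190 FPKM against 25.3 to 66.0 FPKM, and JUN at 2.25 ± 0.34 and 1.66 ± 0.29. LYZ (-1.57 ± 0.29) and PCBP2 (-1.34 ± 0.11) were the 2 called depleted with EZH2.

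The approximate fragment numbers of CEBPA lay near multiples of 5 more often than not. Of 23 libraries with at least 0.001 FPKM, 16 were within 0.3 of such a multiple. What this reflects was not tested.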
